A study of Mus musculus with 14 samples.

Results

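Expression of 8 genes of pigment-making cells was followed across a bulk RNA sequencing study of mouse neck skin. They were Tyr, Tyrp1, Dct, Pmel, Mlana, Oca2, Slc45a2 and Mitf, taken by symbol as a list of melanin synthesis, melanosome and melanocyte regulator genes. All 8 were found by symbol among the 35327 gene rows of the deposited table, and all 8 passed the filter on low counts that left 20939 genes for testing.

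The 14 libraries came from female C57BL/6J mice, each library from 1 mouse by the study's design text, and fell into 5 groups. The cKO group (3 libraries, age 6 to 7 weeks) carried Pdgfra-Cre with floxed Il4ra alleles, so the interleukin 4 receptor alpha chain was lost in cells that express Pdgfra, fibroblasts among them. The fl/fl group (3 libraries, age 6 to 7 weeks) had the same floxed alleles without Cre. The group labelled MAR1 (3 libraries, age 6 weeks) was wild-type and received injections of an antibody against the IgE receptor FceRI that is used to deplete basophils. The isotype group (3 libraries, age 6 weeks) was wild-type and received a control antibody in the same way, 20 µg per injection with 3 injections before skin treatment. These 4 groups all had calcipotriol (MC903), a compound related to vitamin D that inflames the skin, on the shaved neck, 1 nmol in 100 µL daily for 6 days, and the cKO and fl/fl mice had no injections. The untreated group (2 libraries, age 6 weeks) was wild-type skin without MC903. The protocol also speaks of a vehicle, and the names of the untreated libraries differ by a suffix only, so neither vehicle use nor separate mice can be told for them.

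Melanocytes of mouse skin sit mainly in hair follicles, where they make melanin inside organelles called melanosomes and pass it to the growing hair. Tyrosinase, encoded by Tyr, starts the pathway from tyrosine, and the related enzymes of Tyrp1 and Dct act on later intermediates of black melanin. Pmel and Mlana encode melanosome proteins, Oca2 and Slc45a2 encode membrane transporters that keep the organelle fit for melanin synthesis, and Mitf encodes the transcription factor that is known to switch on most of these genes through short DNA boxes. Pigment production in mice follows the hair cycle, being on during hair growth and off at rest. C57BL/6J mice are nonagouti and make black hair. Mitf is also used by other cells, mast cells and macrophages among them, and counts per gene do not separate its melanocyte form from its other start sites.

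The promoters of the 3 enzyme genes are shown because these genes share a family and a regulator, yet Tyrp1 parted from Tyr and Dct in the measurements below. Each line holds the 250 bases before the start site on the gene's strand, from RefSeq on build GRCm38.p6, a build older than that of the counts. Capitals in Tyr and Tyrp1 mark AGTCATGTGCT, the longest run of letters that their windows share. It matches the element known as the M-box and contains CATGTG. The capitals in Dct mark CATGTG or its reverse complement CACATG. Tyr lies on chr7:87493513-87493762, minus strand, Tyrp1 on chr4:80833963-80834212, plus strand, and Dct on chr14:118052247-118052496, minus strand.
Tyr: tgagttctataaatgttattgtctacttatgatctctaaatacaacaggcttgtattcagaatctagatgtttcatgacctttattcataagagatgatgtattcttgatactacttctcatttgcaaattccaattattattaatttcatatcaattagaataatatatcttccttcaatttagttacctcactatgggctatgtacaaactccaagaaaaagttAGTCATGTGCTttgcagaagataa
Tyrp1: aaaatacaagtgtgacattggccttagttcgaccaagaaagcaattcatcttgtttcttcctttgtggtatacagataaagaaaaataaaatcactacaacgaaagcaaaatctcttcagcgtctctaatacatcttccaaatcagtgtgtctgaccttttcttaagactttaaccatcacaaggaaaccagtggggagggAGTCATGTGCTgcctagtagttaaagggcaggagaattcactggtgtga
Dct: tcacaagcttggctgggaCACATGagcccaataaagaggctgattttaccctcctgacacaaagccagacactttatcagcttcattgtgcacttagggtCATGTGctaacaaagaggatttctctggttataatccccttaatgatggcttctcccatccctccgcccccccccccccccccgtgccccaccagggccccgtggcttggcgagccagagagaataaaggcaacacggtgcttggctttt

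The 11 shared letters stood at positions -24 to -14 from the start of Tyr and at -49 to -39 from that of Tyrp1. Searched on both strands, they were found in 7 of 32851 such windows of all genes (0.0213%). CATGTG was found once in each of Tyr and Tyrp1, inside the M-box, 2 times in Dct (starting at -232 and -150) and once in Oca2 (starting at -186), against 12.3% of all windows. Neither CATGTG nor CACGTG, which 6.02% of windows hold, was found in the 3 Mitf windows of the table, and CACGTG was in no window of the 5 members that the table lists. A match describes letters in a window and not a site in use.

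Some libraries stood apart in ways that touch these genes. Library totals, in M (mega) counts, ran from 16.5 to 30.8 in cKO, 45.1 to 48.0 in fl/fl, 5.73 to 10.6 in the libraries labelled MAR1, 34.3 to 35.6 in isotype and 37.5 to 55.3 in untreated skin. Olfactory and vomeronasal receptor genes, which skin is not known to use at such levels, took 0.467 to 2.58% of counts in cKO against 0.0480 to 0.0769% in fl/fl, and 3.88 to 9.38% in the libraries labelled MAR1 against 0.269 to 0.439% in isotype. Il4ra stood at 70.7, 67.9 and 14.5 CPM (counts scaled to a common library size by TMM in edgeR) in cKO libraries 1 to 3, against 215, 145 and 176 in fl/fl. It was also low in the wild-type libraries labelled MAR1, at 45.8, 23.3 and 9.02 CPM, against 196, 179 and 193 in isotype. In untreated skin Il4ra was at 59.4 and 105 CPM. The basophil protease gene Mcpt8 was at 18.0 to 31.2 CPM in the libraries labelled MAR1 against 3.97 to 6.71 in isotype, so that it was not lower under the depleting antibody. Library cKO 1 held the Y-linked genes Ddx3y and Eif2s3y at 69.9 and 53.5 CPM although labelled female, and fl/fl libraries 1 and 2 held the salivary gene Bpifa2 at 733 and 10949 CPM. Krt14, a keratin of the basal epidermis, was at 853 CPM or more in all 14 libraries.

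**Figure D1:**
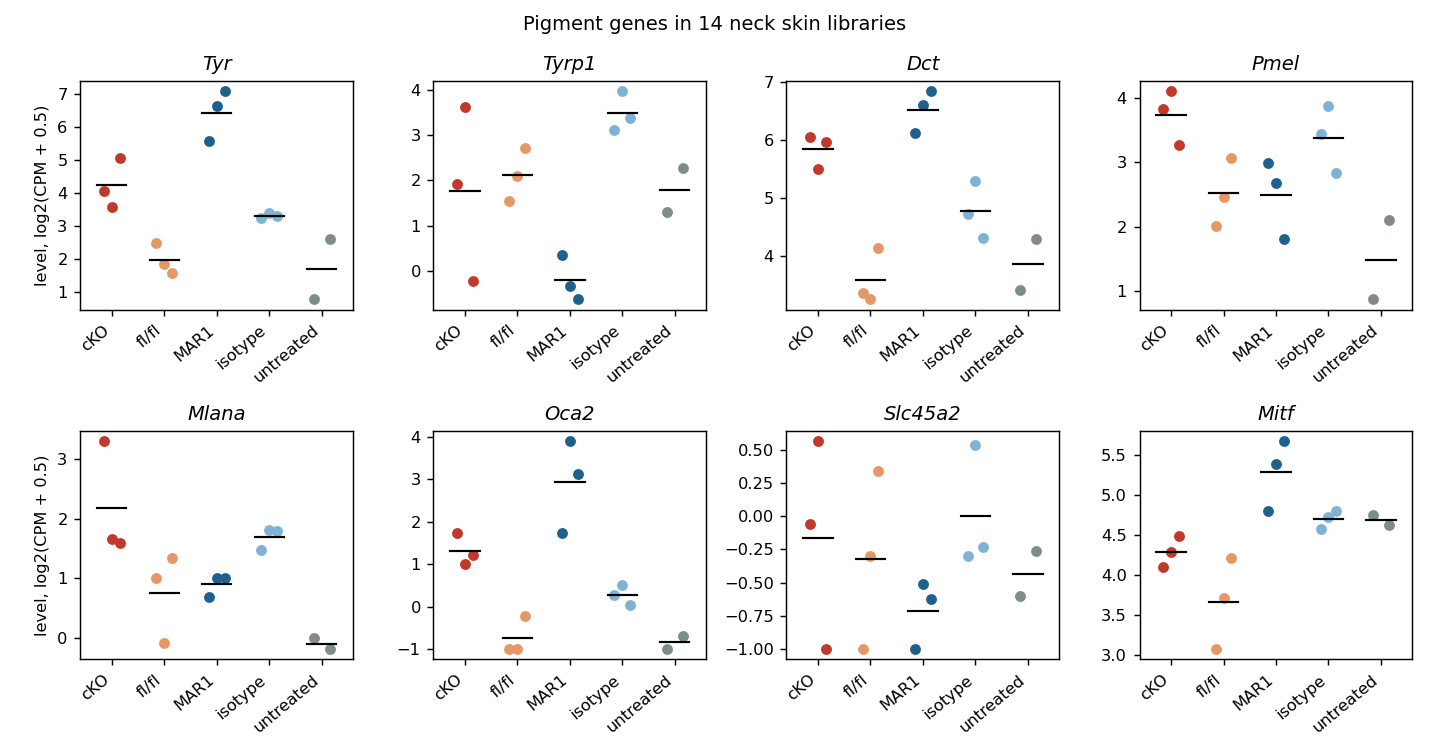
Level of each pigment gene in every library, as log2(CPM + 0.5) on the vertical axis (scale differs by panel), with 1 point per library and a bar at the group mean of these values. By group mean, Tyr, Dct and Oca2 sit highest in the libraries labelled MAR1 and Tyrp1 sits lowest there. Single libraries overlap, with Tyrp1 lower in cKO library 3 than in MAR1 library 1, and Oca2 level between MAR1 library 1 and cKO library 1.

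The libraries labelled MAR1 were compared with isotype libraries to ask how the basophil-directed antibody changed MC903-treated skin. Tyr, Dct and Oca2 were higher and Tyrp1 was lower in the libraries labelled MAR1. These were 4 of the 8 genes (edgeR quasi-likelihood test, Benjamini-Hochberg adjusted p under 0.05 over all genes), and 49% of all tested genes passed in this comparison, 22.6% higher and 26.5% lower, so that the count is near the share in the whole table. DESeq2 called 5, adding Mitf, against 56.4% of all genes. In bulk tissue, fewer melanocytes and less RNA per melanocyte cannot be told apart. Markers of keratinocytes moved in the same comparison, where 8 of 9 fell and none rose with MAR1 (5 fell with RLE scaling). Their summed level was 2945 to 6093 CPM in the libraries labelled MAR1 against 18809 to 36333 CPM in isotype, and none was at 0. Krt14 alone was at 1511 to 3837 CPM against 13911 to 18935 CPM. The part of the keratinocyte share in the pigment results was not tested.

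Tyr stood at 47.9, 100.1 and 135 CPM in the libraries labelled MAR1, against 9.08, 10.1 and 9.44 CPM in isotype. Every MAR1-labelled library lay far above every isotype library, and the isotype libraries were nearly equal. The fold change was 9.91 (log2 3.31 ± 0.58, SE, adjusted p = 0.000719, edgeR).

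Dct, which encodes dopachrome tautomerase, stood at 69.3, 97.0 and 114 CPM with MAR1, against 25.9, 38.8 and 19.3 CPM with isotype. The groups did not overlap, and Dct was 3.34-fold higher (log2 1.74 ± 0.37, adjusted p = 0.00211, edgeR). Tyrp1, whose protein stabilises tyrosinase, went the other way. It stood at 0.773, 0.302 and 0.150 CPM with MAR1, against 8.08, 15.1 and 9.91 CPM with isotype. This is 9, 3 and 1 counts against 283, 523 and 339 counts, and no library of one group came near the other. The fitted log2 fold change of Tyrp1 was -4.67 ± 1.07 (adjusted p = 0.00329, edgeR).

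Oca2, the pink-eyed dilution gene, stood at 2.84, 14.4 and 8.27 CPM in the libraries labelled MAR1, against 0.714, 0.922 and 0.526 CPM in isotype. The groups did not overlap, but the MAR1-labelled libraries differed among themselves more than for Tyr or Dct. The log2 fold change was 3.55 ± 1.34 (adjusted p = 0.0411, edgeR), and the call was lost when MAR1 library 2 or 3 or any isotype library was left out, with an adjusted p of 0.0794 to 0.14. Slc45a2, the other transporter, had 3 counts in the libraries labelled MAR1 together against 56 counts in isotype, a rate ratio of 0.197 (95% counting interval 0.0395 to 0.607). Its test did not pass (adjusted p = 0.329).

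The genes of melanosome structure were not called. Pmel, whose protein forms the fibrils on which melanin is laid down, was at 7.48, 5.94 and 3.01 CPM with MAR1, against 10.4, 14.2 and 6.66 CPM with isotype, and the groups overlapped (log2 -0.92 ± 0.54, adjusted p = 0.161). Mlana, the melanosome protein also called MART-1, was at 1.12, 1.51 and 1.503 CPM with MAR1, against 2.28, 3.00 and 2.98 CPM with isotype. These groups did not overlap, and the difference still missed the threshold (log2 -1.001 ± 0.77, adjusted p = 0.279). Mitf was at 27.3, 41.4 and 50.3 CPM with MAR1, against 23.3, 25.9 and 27.3 CPM with isotype, with MAR1 library 1 level with the highest isotype library. Its log2 difference was 0.64 ± 0.32 (adjusted p = 0.111, edgeR). Over the 8 genes the median log2 fold change was -0.14, against 0 for all tested genes, with 4 positive and 4 negative. Scaling by the RLE method in place of TMM moved the median of all genes by 0.57, and the pigment median was then 0.45. With RLE scaling 4 of the 8 genes were called higher and 1 lower, against 9991 of 20939 genes called. Tyr, Tyrp1, Dct and Oca2 were among the pigment genes called, with the same signs.

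**Figure D2:**
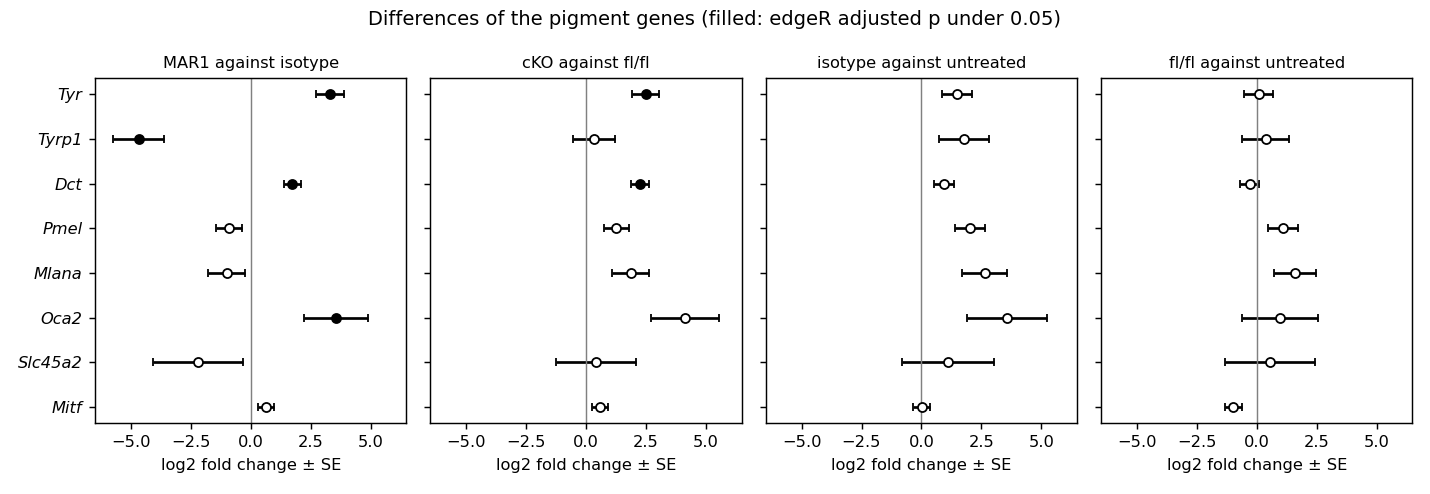
Log2 fold change of each pigment gene with its SE in 4 comparisons, filled where the edgeR adjusted p was under 0.05. In MAR1 against isotype the genes spread to both sides, from -4.67 for Tyrp1 to 3.55 for Oca2, while in cKO against fl/fl all 8 lie right of 0.

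The cKO libraries were compared with fl/fl libraries to ask what loss of Il4ra in Pdgfra-expressing cells changed under MC903. Tyr and Dct were higher in cKO. These were 2 of the 8 genes, and 18.7% of all tested genes were called in this comparison, 12.7% higher and 5.97% lower. All 8 fitted log2 fold changes were positive, with a median of 1.57 against 0.03 for all tested genes. DESeq2 called 5 of the 8, adding Pmel, Mlana and Oca2, against 29.4% of all genes. Skeletal muscle content differed between the same groups. Of 18 muscle markers 10 fell and none rose in cKO, with a summed level of 217 to 5284 CPM in cKO against 20463 to 88474 CPM in fl/fl, where they took 1.53 to 6.87% of counts, and none was at 0. The count of muscle markers called lower moved with the library left out. It was 18 without cKO library 1, 6 without cKO library 2, 2 without cKO library 3 and 4 without fl/fl library 1. The number of all tested genes called was 3349, 4362, 1958 and 3125 in the same order, against 3906 in the main fit. None of the 18 markers had a positive fitted difference under any setting, and their median log2 fold change ran from -9.95 to -2.99. The part of muscle content in the pigment results was not tested.

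Dct stood at 65.7, 44.9 and 61.8 CPM in cKO, against 9.75, 9.06 and 17.2 CPM in fl/fl. The groups did not overlap, and Dct was 4.79-fold higher (log2 2.26 ± 0.38, adjusted p = 0.00297, edgeR). Tyr stood at 16.2, 11.4 and 33.0 CPM in cKO, against 5.13, 3.12 and 2.51 CPM in fl/fl. These groups did not overlap either, and Tyr was 5.62-fold higher (log2 2.49 ± 0.57, adjusted p = 0.00929, edgeR). Without library cKO 1, the one with Y-linked transcripts, both remained called, with log2 fold changes of 2.63 for Tyr (adjusted p = 0.0149) and 2.15 for Dct (adjusted p = 0.00759). With cKO libraries 1 and 3 left out, the ones above 1% receptor gene counts, the log2 fold change was 2.02 for Tyr (adjusted p = 0.129) and 2.23 for Dct (adjusted p = 0.0407). With the fl/fl libraries holding salivary transcripts left out, neither passed, at 3.32 for Tyr (adjusted p = 0.0759) and 2.03 for Dct (adjusted p = 0.0578). In each of these last fits 1 library stood for a group and was assumed to vary like the others.

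Oca2 stood at 2.84, 1.504 and 1.83 CPM in cKO, against 0, 0 and 0.355 CPM in fl/fl, or 157 against 12 counts in all. A count of 0 in fl/fl libraries 1 and 2 allows up to 0.0819 and 0.0670 CPM, by counting error alone. The groups were apart, and the fitted log2 difference of 4.12 ± 1.41 narrowly missed the threshold (adjusted p = 0.0569, edgeR). Pmel stood at 13.7, 16.7 and 9.13 CPM in cKO, against 3.55, 5.02 and 7.89 CPM in fl/fl. Mlana stood at 9.40, 2.65 and 2.53 CPM in cKO, against 1.501, 0.446 and 2.04 CPM in fl/fl. Neither gene's groups overlapped, and the log2 differences of 1.27 ± 0.53 for Pmel and 1.87 ± 0.77 for Mlana did not pass (adjusted p = 0.109 and 0.101, edgeR).

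Tyrp1 was uneven within cKO. It stood at 3.26, 11.8 and 0.353 CPM in cKO, against 2.43, 3.75 and 6.09 CPM in fl/fl. Library cKO 2 lay above every fl/fl library and cKO 3 below every one, so the groups overlapped, and the log2 difference was 0.34 ± 0.88 (adjusted p = 0.823, edgeR). Slc45a2 was at 0.461, 0.981 and 0 CPM in cKO, against 0, 0.312 and 0.768 CPM in fl/fl, and was too sparse to rank the groups. Mitf was at 16.6, 19.0 and 22.0 CPM in cKO, against 7.94, 12.6 and 18.0 CPM in fl/fl, with overlap (log2 0.58 ± 0.32, adjusted p = 0.214).

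The cKO effect was set against the MAR1 effect by an interaction term in the same fit. Of the 8 genes only Tyrp1 passed, with a cKO effect larger than the MAR1 effect by 5.01 ± 1.36 on the log2 scale (adjusted p = 0.0413, edgeR), and 7.96% of all tested genes were called in this term. The differences were 2.19 ± 0.76 for Pmel (adjusted p = 0.0809) and 2.87 ± 1.08 for Mlana (adjusted p = 0.102). For Tyr the difference was -0.82 ± 0.76 and for Dct 0.52 ± 0.51 (adjusted p = 0.498 and 0.521), which does not show that the effects were equal. The Tyrp1 call was lost under 12 of the other settings, with an adjusted p of up to 0.19.

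The receptor gene share and the depth of the libraries moved with Tyr and Tyrp1 among the cKO libraries and among those labelled MAR1, but not in every group. Within cKO the receptor share was 1.49, 0.467 and 2.58% in libraries 1 to 3, and Tyr was highest and Tyrp1 lowest in library 3, while Tyr was lowest and Tyrp1 highest in library 2. Within MAR1 the share was 3.88, 7.55 and 9.38%, Tyr went up in that order and Tyrp1 went down in it. Total counts went the other way, with 25.8, 30.8 and 16.5 M counts in the cKO libraries and 10.6, 8.68 and 5.73 M counts in those labelled MAR1. In isotype, by contrast, Tyr was highest (10.1 CPM) in library 2, which had the lowest receptor share (0.269%) and the most counts (35.6 M), although Tyrp1 was also highest there. In untreated skin Tyr and Tyrp1 were both higher in library 2 (5.58 and 4.37 CPM), where the receptor share was 0.277%, than in library 1 (1.22 and 1.97 CPM), where it was 0.0486%. In fl/fl, library 1 had the highest share (0.0769%), the highest Tyr and the lowest Tyrp1, while libraries 2 and 3 had nearly equal shares. Tyr counts per Tyrp1 count were 4.98, 0.965 and 93.5 in cKO, against 2.11, 0.832 and 0.412 in fl/fl. They were 61.9, 331 and 901 in the libraries labelled MAR1, against 1.12, 0.668 and 0.953 in isotype. Library cKO 2 had a receptor share (0.467%) above every isotype library (at most 0.439%) and every fl/fl library (at most 0.0769%). Its Tyr to Tyrp1 ratio lay within the range of the fl/fl libraries, and its Tyr and Dct levels lay above all of them. The part of the receptor share and of depth in these results was not tested.

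**Figure D3:**
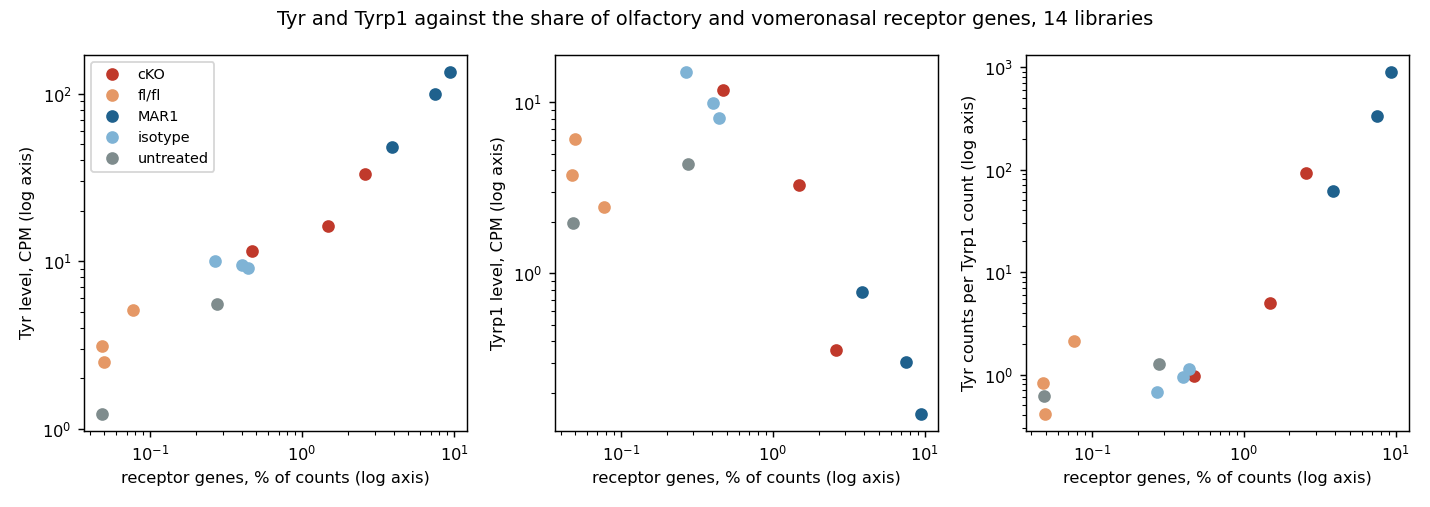
Tyr level, Tyrp1 level and Tyr counts per Tyrp1 count in each of 14 libraries (log vertical axes) against the percent of counts in olfactory and vomeronasal receptor genes (log horizontal axis), coloured by group. The libraries labelled MAR1 and cKO library 3 lie at the high end of receptor share with high Tyr and low Tyrp1.

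Gene span was read beside the direction too. By the GENCODE M21 annotation, Oca2 spans 297 kb, Mitf 214, Tyr 68.7 and Dct 39.5, and these 4 had positive log2 fold changes in MAR1 against isotype. Slc45a2 spans 28.5 kb, Tyrp1 17.6, Pmel 16.04 and Mlana 10.8, and these 4 had negative ones. Over all annotated genes in 4 classes of span, the median log2 fold change was -0.50, -0.47, -0.48 and -0.05 from shortest to longest. Dct and Slc45a2, of opposite sign, both lay in class 3, while Tyrp1, Pmel and Mlana lay in class 2. Tyr, Oca2 and Mitf, all positive, lay in class 4, the one with the median of -0.05. In class 4, 23.6% of genes were called higher, against 14.2, 17.5 and 18.1% in classes 1 to 3. Span was chosen for this comparison after the values were seen, and its part in the result was not tested. In cKO against fl/fl the same medians were -0.30, -0.21, -0.07 and 0.07, and all 8 genes had positive values whatever their span.

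As shares of all counts in the 8 genes, the libraries also differed in make-up. Tyr and Dct together took 63.9, 51.7 and 72.6% in cKO, against 49.1, 35.5 and 36.0% in fl/fl. They took 74.8, 75.6 and 79.7% in the libraries labelled MAR1, against 43.7, 44.9 and 37.6% in isotype. Mitf took 63.2 and 41.8% in untreated skin, more than in any MC903-treated library. Tyrp1 took at most 0.494% in a library labelled MAR1, against 10.1 to 13.9% in isotype. These shares add up within a library, so a high share of one gene lowers the others.

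**Figure D4:**
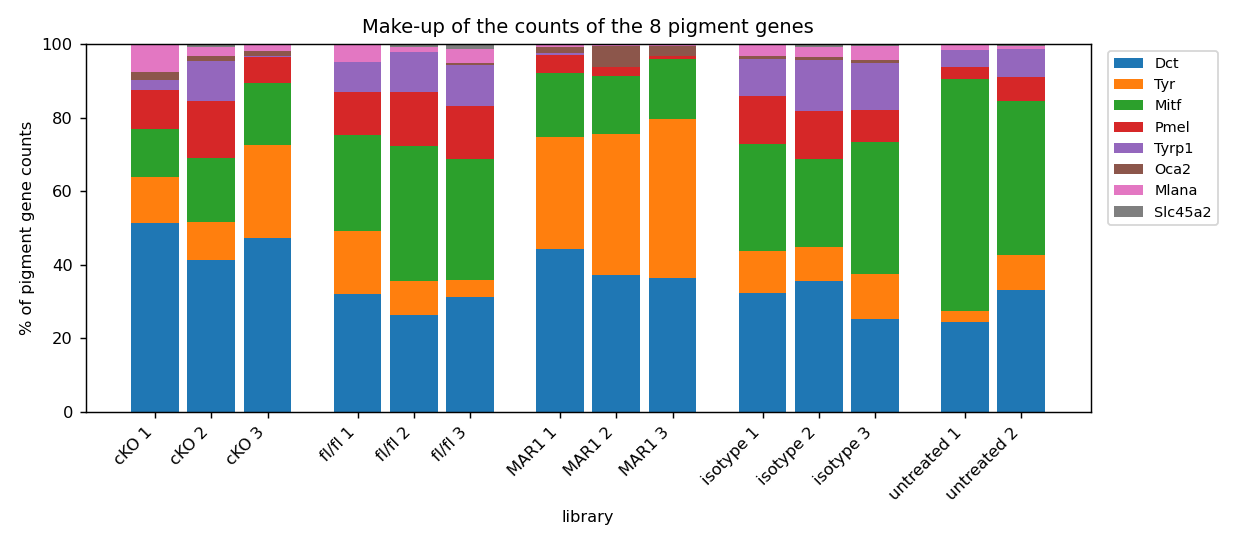
Percent of the counts of the 8 pigment genes that each gene took, as a stacked bar for each library. Dct and Tyr fill at least 74.8% of each bar labelled MAR1, and Mitf fills 63.2 and 41.8% of the untreated bars.

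Between genes, levels were compared as CPM per kilobase of the longest coding transcript in GENCODE M21. Dct was highest in all 5 groups, at 26.1 ± 5.0 in cKO, 5.45 ± 2.1 in fl/fl, 42.4 ± 10.2 with MAR1, 12.7 ± 4.5 with isotype (SD, n = 3 each) and 6.67 ± 2.9 in untreated skin (n = 2). In isotype libraries Mitf (5.22), Pmel (4.89), Tyrp1 (4.05) and Mlana (3.04) followed, each overlapping its neighbour. Tyr (1.58) came next, apart from both neighbours, and then Oca2 (0.230) and Slc45a2 (0.181), which overlapped. With MAR1 the order changed. Tyr (15.6) and Mitf (8.13), which overlapped, followed Dct, then came Oca2 (2.71), Pmel (2.57) and Mlana (1.52), each overlapping its neighbour, and Tyrp1 (0.150) and Slc45a2 (0.0393), overlapping, came last. In cKO the order after Dct was Pmel (6.19), Mlana (5.36), Mitf (3.93), Tyr (3.35), Tyrp1 (1.89), Oca2 (0.656) and Slc45a2 (0.161), where only the last pair did not overlap. In fl/fl it was Mitf (2.64), Pmel (2.58), Tyrp1 (1.503), Mlana (1.47), Tyr (0.594), Slc45a2 (0.121) and Oca2 (0.0377), with a gap only after Dct and after Tyr. In untreated skin Mitf (5.19) overlapped Dct, and Pmel (1.203), Tyrp1 (1.16), Tyr (0.563), Mlana (0.483), Slc45a2 (0.0824) and Oca2 (0.0189) followed. Tyr and Tyrp1 thus changed places between isotype and MAR1 libraries, with ranges that did not overlap in either.

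Isotype libraries were compared with untreated skin for the response to MC903, with the antibody injections added. None of the 8 genes was called by edgeR, against 3.08% of all tested genes, while 5 had an unadjusted p under 0.05 (18% of all genes had) and DESeq2 called Pmel and Mlana (11.8% of all genes). All 8 fitted differences were positive, with a median log2 fold change of 1.64 against 0.11 for all genes. Tyr stood at 9.08 to 10.1 CPM in isotype against 1.22 and 5.58 CPM in untreated skin, and Tyrp1 at 8.08 to 15.1 against 1.97 and 4.37 CPM. Pmel stood at 6.66 to 14.2 CPM against 1.33 and 3.797, with a log2 difference of 2.02 ± 0.64 (adjusted p = 0.110, edgeR). For Mlana the values were 2.28 to 3.00 CPM against 0.496 and 0.380 (log2 2.64 ± 0.93, adjusted p = 0.150). Oca2 had 75 counts in isotype against 5 counts in untreated libraries. The isotype libraries lay above both untreated ones for these genes, and for Dct by a hair, at 19.3 CPM or more against 10.2 and 19.2. Mitf did not move with the others, at 23.3 to 27.3 CPM in isotype against 26.5 and 24.2 CPM in untreated skin (log2 0.01 ± 0.36, adjusted p = 1).

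The fl/fl libraries were set against the same untreated libraries, so this comparison shares its controls with the last. None of the 8 genes was called by edgeR, against 1.72% of all tested genes, with 1 at an unadjusted p under 0.05 (18.3% of all genes) and none called by DESeq2 (10.8% of all genes). Tyr was at 5.13, 3.12 and 2.51 CPM in fl/fl, within the 1.22 and 5.58 CPM of untreated skin. Dct was at 9.75, 9.06 and 17.2 CPM in fl/fl against 10.2 and 19.2 CPM. Mitf was the one below 0.05 before adjustment, at 7.94, 12.6 and 18.0 CPM in fl/fl against 26.5 and 24.2 CPM in untreated skin (log2 -0.98 ± 0.35, adjusted p = 0.162). Its groups did not overlap.

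Between the MC903-treated controls, fl/fl against isotype, all 8 fitted differences were negative, with a median log2 fold change of -1.14 against -0.10 for all genes. None was called by edgeR, against 5.22% of all tested genes, with 3 at an unadjusted p under 0.05 (24.3% of all genes) and Dct called by DESeq2 (18.3% of all genes). Dct had a log2 difference of -1.22 ± 0.36 (adjusted p = 0.0639), Mitf of -0.99 ± 0.32 (adjusted p = 0.0844) and Tyr of -1.41 ± 0.55 (adjusted p = 0.139). The control arms differed in genotype and injections, so cKO libraries were read against fl/fl alone and those labelled MAR1 against isotype alone.

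Receptors and regulators of melanocytes were looked at as the surroundings of the 8 genes. Counts of this and the following lists are to be read against the 22.6% of all tested genes that were higher and the 26.5% lower with MAR1, and the 12.7% higher and 5.97% lower in cKO. Of 13 such genes, 4 rose and 4 fell in MAR1 against isotype, and 1 rose in cKO against fl/fl, shares close to those of the whole table. Mc1r, the melanocortin receptor that turns melanocytes to black pigment, rose in both. It stood at 52.0, 67.6 and 97.8 CPM in the libraries labelled MAR1, against 4.196, 3.03 and 3.21 CPM in isotype (log2 4.38 ± 0.68, adjusted p = 0.000394, edgeR). It stood at 11.1, 3.83 and 27.8 CPM in cKO, against 0.519, 0.558 and 0.621 CPM in fl/fl (log2 4.64 ± 0.70, adjusted p = 0.00252). Within cKO and within MAR1 its libraries kept the order of Tyr. Mc1r overlaps another gene model, Gm20388, on the same strand, so its reads are uncertain. Tfap2b, a neural crest transcription factor gene, rose in MAR1 (log2 1.95 ± 0.46), while Ednrb, the endothelin receptor of melanocyte precursors, fell (-1.94 ± 0.47), as did Erbb3, a neuregulin receptor (-2.24 ± 0.59; adjusted p = 0.00372, 0.00441 and 0.0073, edgeR).

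Other melanosome genes moved in both directions with MAR1. Of 16, 3 rose and 6 fell with MAR1, again close to the whole table, and 1 rose and none fell in cKO. Trpm1, a cation channel gene that Mitf is known to drive, rose with MAR1 (34.5, 44.1 and 55.8 CPM, against 5.34, 6.80 and 6.55 with isotype, log2 2.85 ± 0.62, adjusted p = 0.00258) and in cKO (16.7, 8.18 and 19.0 CPM, against 2.02, 3.04 and 2.90 in fl/fl, log2 2.46 ± 0.62, adjusted p = 0.0149). Tpcn2, a melanosome ion channel gene, fell with MAR1 (log2 -3.63 ± 0.73, adjusted p = 0.00162), as did Myo5a, the motor that carries melanosomes (-1.06 ± 0.24, adjusted p = 0.00284), and Gpnmb, a relative of Pmel that macrophages also make (-2.44 ± 0.58, adjusted p = 0.00432, edgeR). With RLE scaling, 4 rose and 2 fell with MAR1.

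The BLOC, AP-3 and HOPS complexes bring cargo to melanosomes and to lysosomes in many cell types. The list of 21 genes read for them also held Lyst and Rabggta, which are not subunits of these complexes. Of the 21 genes, 14 fell and none rose with MAR1, with a median log2 fold change of -1.18 (9 fell and 1 rose with RLE scaling). In cKO 3 fell and none rose. Dtnbp1, a BLOC subunit gene, was lower with MAR1 (log2 -3.49 ± 0.51, adjusted p = 0.000307), as were Hps1 (-3.46 ± 0.51, adjusted p = 0.000316) and the AP-3 genes Ap3m1 (-1.95 ± 0.30, adjusted p = 0.00035) and Ap3d1 (-1.90 ± 0.30, adjusted p = 0.000417, edgeR). In cKO, Snapin (-1.24 ± 0.37), Ap3d1 (-0.94 ± 0.29) and Ap3b1 (-1.20 ± 0.39) fell (adjusted p = 0.0339, 0.0385 and 0.0441).

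Of 10 signals that act on melanocytes, 2 fell with MAR1 and 1 rose in cKO. Kitl, the growth factor that keeps melanocytes alive, fell with MAR1 (34.6, 23.5 and 17.3 CPM, against 65.8, 69.6 and 57.2 with isotype, log2 -1.35 ± 0.35, adjusted p = 0.00641). Mgrn1, the mahogunin ligase gene of the agouti pathway, also fell (log2 -4.49 ± 0.68, adjusted p = 0.000354). Corin, a protease of the hair papilla that limits agouti signalling, stood at 5.07, 1.83 and 3.18 CPM in cKO and at 0 counts in all fl/fl libraries (adjusted p = 0.00212, edgeR). The agouti gene, listed as a, was at 5.84, 4.83 and 5.11 CPM with MAR1 against 11.2, 10.03 and 9.44 with isotype and did not pass (log2 -0.96 ± 0.81, adjusted p = 0.324).

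Markers of melanocytes beyond the 8 genes, and of cells near them, were also read. The 9 melanocyte markers all belong to the regulator and melanosome lists above, so their calls (4 rose and 2 fell with MAR1, and 2 rose in cKO) are not further ones. The summed level of the 9 was 201 to 278 CPM with MAR1 against 118 to 140 with isotype, and 74.9 to 117 in cKO against 33.7 to 74.3 in fl/fl. Of the 9, 6 had a positive fitted difference with MAR1, while Slc24a5 and Sox10 lay lower there by group mean. Slc24a5, the melanosome exchanger gene, was at 0 counts in MAR1 libraries 1 and 3, against 1.11 to 2.91 CPM in isotype. It was also at 0 in fl/fl library 1 and untreated library 1. Sox10, a transcription factor gene of melanocytes and Schwann cells, was at 1.63, 4.43 and 6.16 CPM with MAR1. With isotype Sox10 was at 8.19, 8.73 and 5.73 CPM (adjusted p = 0.153, edgeR). Of 15 Schwann cell markers, 2 rose and 4 fell with MAR1, and 3 rose in cKO. Of 12 markers of mast cells, which also use Mitf, 8 fell with MAR1 and none was called in cKO, and of 12 macrophage markers 7 fell with MAR1 and 5 fell in cKO. Their part in the results was not tested.

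Hair growth genes were read beside them because pigment follows the hair cycle. Of 25 anagen hair shaft and sheath genes 3 fell with MAR1 and 1 rose in cKO, and their summed level was 230 to 288 CPM with MAR1 against 1944 to 2436 with isotype, and 488 to 1342 in cKO against 1081 to 2893 in fl/fl. It was 45.8 and 27.0 CPM in untreated skin. This sum was mostly 1 gene, Tchh, which encodes trichohyalin of the inner root sheath, at 204 to 261 CPM with MAR1 against 1915 to 2111 with isotype (log2 -3.14 ± 0.44, adjusted p = 0.000288, edgeR) and at 477 to 1074 in cKO against 1069 to 2800 in fl/fl (log2 -1.10 ± 0.41, adjusted p = 0.0761, edgeR). The other 24 genes, summed without it after the values were seen, stood at 15.99, 26.3 and 26.5 CPM with MAR1, against 325, 20.7 and 28.9 with isotype, and at 11.6, 21.3 and 452 in cKO, against 9.01, 11.7 and 93.3 in fl/fl. Without Tchh the groups thus overlapped, and single libraries held most of the rest. Of 12 hair matrix regulators 6 rose with MAR1 and 1 rose in cKO. Gata3, a regulator of the inner root sheath, rose with MAR1 (log2 2.55 ± 0.43, adjusted p = 0.000548) and in cKO (1.35 ± 0.41, adjusted p = 0.0358, edgeR). The part of hair stage in the pigment results was not tested.

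The 8 genes did not share one pattern over the 14 libraries. As the root-mean-square difference of centred log2(CPM + 0.5), Dct and Oca2 were the most alike pair (0.527), then Pmel and Mlana (0.649) and Tyr and Oca2 (0.675). Tyr and Tyrp1 were the least alike (2.95). Slc45a2, with a mean under 1 CPM, was left out of the mean pattern, and the smallest differences from the mean of the other 7 were those of Sclt1 (0.277), Acp6 (0.285) and Pik3c2a (0.299), followed by Zfp26, Taf1d, Ubn2, Zc3h7a, Vps50, Acad9 and Dennd1b (up to 0.342), among 14885 genes. The closest to Tyr were Brca2 (0.269), H1f3 (0.276) and Drc3 (0.287), to Tyrp1 Xrcc3 (0.416), Masp1 (0.446) and Cpa3 (0.511), and to Mitf Mef2a (0.199). These libraries share their depth and receptor gene share, which such a likeness also picks up. Pmel overlaps Cdk2 and Dgka on the opposite strand, so where the counting ignored strand its reads could include theirs.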

How the data were processed

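Polyadenylated RNA of 14 neck skin samples was measured. The authors deposited expected counts per gene symbol, with decimals and without normalization. Per the submitters' processing notes, Salmon 1.2.1, DESeq2 1.44.0 and build GRCm39 were used, with no role given. From these, counts were rounded to whole numbers and 1 of 35328 rows, which has no gene name and held 0.0137 to 0.913% of counts, was left out. A single model with a mean for each of the 5 groups was fitted to every library (edgeR 4.0.16 under R 4.3.3), after TMM scaling and filterByExpr. Its two-sided robust quasi-likelihood test had 9 residual degrees of freedom, and p-values were adjusted by Benjamini-Hochberg over 20939 genes. CPM uses the same scaling. SE is the log2 fold change divided by the square root of F. The p-values measure the spread between these samples. Floors are 3 counts per library and cover counting error only. Members and gene lists were chosen with earlier results of these data known. Named genes are the 8 members and up to 4 genes with the smallest p of each other list, with those at 0. Slc24a5, Sox10 and the agouti gene were picked after their values were seen. The fit was tested on simulated data. Transcript lengths were found for 16853 of the tested genes (80.5%). DESeq2 1.42.0 and other settings were alternatives. Figures were drawn with matplotlib 3.10.9.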

Additional observations from a re-analysis of the deposited data

Results flagged for a closer look

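Tyrp1 was flagged because its difference itself differed between the experiments by a test, the interaction term. The cKO effect exceeded the MAR1 effect by 5.01 on the log2 scale (SE 1.36, adjusted p = 0.0413, edgeR). Tyrp1 had 92, 362 and 6 counts in cKO, against 89, 168 and 206 in fl/fl, and 9, 3 and 1 counts in the libraries labelled MAR1, against 283, 523 and 339 in isotype. Without cKO library 3, the one with the lowest Tyrp1 and the highest receptor gene share of its group, the difference was 5.55 (adjusted p = 0.00479), and without cKO library 2 it was 3.85 (adjusted p = 0.0658).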

How the results depend on the processing

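Calls of Tyr, Tyrp1 and Dct in MAR1 against isotype held under all 24 other settings, and Oca2 lost its call under 7. Of the 8 genes, 4 were called there, and 3 to 5 under the others. In cKO against fl/fl the 2 calls became 5 with DESeq2, 4 with the untreated libraries summed or all libraries thinned to the shallowest, 0 without the fl/fl libraries with salivary transcripts, 1 without the cKO libraries above 1% receptor counts (added after seeing the data), and 2 to 5 with 1 library left out, being 4 without cKO library 2 or untreated library 2 and 5 without fl/fl library 3. In isotype against untreated, 2 were called with DESeq2 or only these groups in the fit, and 0 to 2 with 1 library left out. In fl/fl against untreated none was called under any of them. In fl/fl against isotype, 1 was called with DESeq2, 3 with the untreated libraries summed, 2 without the cKO libraries above 1% receptor counts and 0 to 3 with 1 library left out. In the interaction, 0 were called with RLE scaling, only the groups compared, the replicate block or no salivary libraries, 2 with the untreated libraries summed or with thinning, and 0 to 4 with 1 library left out. The number of all tested genes called moved between settings too. In cKO against fl/fl it was 3906 of 20939 in the main fit and 3454 of 17815 with thinning. There it was 4362 of 20893 without cKO library 2 and 4229 of 20902 without fl/fl library 3. Fewer were called without the salivary fl/fl libraries or the cKO libraries above 1% receptor counts, each leaving 1 library in a group. In isotype against untreated it was 3553 of 17528 with only these groups. In the interaction it was 1667 of 20939 in the main fit, 904 with RLE scaling, 537 with the replicate block and 1625 of 17815 with thinning. Summing the untreated libraries raised it in cKO against fl/fl, in fl/fl against isotype and in the interaction. With 1 library left out it ran from 0 to 3176 in fl/fl against isotype and 1 to 4863 in the interaction. The cause was not tested.

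Some log2 differences of genes that were not called turned sign. In cKO against fl/fl, Tyrp1 was -0.18 under the block and -0.79 to 1.12 with 1 library left out, and Slc45a2 was -0.38 without salivary libraries and -0.26 to 1.98. In isotype against untreated, Mitf was -0.020 with only these groups, -0.16 under the block and -0.043 to 0.43 with 1 left out. In fl/fl against untreated, Tyr was -0.12 with the untreated libraries summed, -0.55 without salivary libraries, -0.11 without the cKO libraries above 1% receptor counts and -0.64 to 1.54 with 1 left out. Dct there was 0.011 with thinning, 0.14 without salivary libraries and -0.83 to 0.25, and Oca2 was -2.19 with thinning and -3.84 to 4.63. With 1 left out, Tyrp1 there was -0.23 to 1.07 and Slc45a2 -0.83 to 1.18. In fl/fl against isotype, Slc45a2 was 0.23 without salivary libraries and -2.13 to 0.11. In the interaction, Mitf was 0.035 under the block, 0.41 with the untreated libraries summed, 0.26 without the cKO libraries above 1% receptor counts and -0.27 to 0.66 with 1 left out. Tyr was 0.018 and Oca2 -0.74 without salivary libraries, and Oca2 was -0.038 to 5.54 with 1 left out.

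Replicate numbers did not pair the samples, since the deviations of same-numbered libraries correlated at -0.24 to 0.09. The replicate block changed no call in cKO against fl/fl and lost that of Oca2 in MAR1 against isotype (log2 3.29, adjusted p = 0.0733). At 5.73 to 10.6 M counts per library labelled MAR1, genes such as Slc45a2 rest on a few counts.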
